A study of Mus musculus with 6 samples.

Results

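Met, the receptor tyrosine kinase for hepatocyte growth factor, was followed with its ligand machinery, its close relative, its co-receptor and the proteins that dock on it. The 10 genes were named together because Met was higher after treatment in these same libraries. Of them, 8 had a row in the deposited table of 15726 genes (Met, Mst1r, Gab1, Grb2, Cbl, Ptpn11, Plxnb1 and Hgfac), and the expression of Hgf and St14 was not analysed here. Reaching a mean of 1 FPKM in either group, the limit used for testing, were 6 of the 8, among 10680 genes of the table. FPKM scales the reads of a gene to its length and to the size of the library. The lengths used for the deposited values were not examined, and comparisons of levels between genes rest on them.

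The cells were B16F10, an established mouse melanoma line, collected 8 h after the medium was changed to one with rPPAA18C6@Dox (50 μg/mL, 3 libraries) or with PBS alone (3 libraries). No genetic change separates the groups, and the preparation is known from the labels only by this code, with a series title that describes a potassium ionophore-based nanoplatform. Whether the replicates of a group are separate cultures is not in the labels, so errors and p-values measure the spread between libraries, which may be technical. Columns of the treated libraries carry the letter P and a number that the titles do not spell, and were assigned by elimination, so the sign of each difference rests on that reading. Whole reads recovered from the steps of the FPKM values gave a depth of 36380462 to 37067116 reads per library.

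The lineage label held: the 8 melanocyte markers (Mitf, Sox10, Pmel, Tyr, Tyrp1, Dct, Mlana and Trpm1) were all past the limit, with a summed level of 6158 to 6246 FPKM in PBS libraries and 7217 to 7246 FPKM in treated ones, and 6 of them rose (limma, adjusted p under 0.05 over all tested genes). Of all tested genes 4.66% passed as higher. Markers of other cells were low. The 5 fibroblast markers with a row summed to 4.24 to 4.35 FPKM with PBS and 3.70 to 4.07 FPKM with treatment, and neither of the 2 that were tested passed. The 2 immune markers summed to 1.49 to 1.54 FPKM with PBS and 1.78 to 1.90 FPKM with treatment. Of these Cd68 passed as higher (log2 fold change 0.23, adjusted p = 0.0311), a call lost whichever library was left out (up to 0.0952), with voom on recovered reads and with the replicate block. The 1 epithelial marker was at 0.146 to 0.175 FPKM and 0.159 to 0.280 FPKM. The 2 endothelial markers summed to 2.90 to 3.23 FPKM with PBS and 4.72 to 4.88 FPKM with treatment, and of them Vwf rose (0.79, adjusted p = 5.91e-05) and Pecam1 did not pass (-0.01, adjusted p = 0.920). The lists held 8 fibroblast, 8 immune, 6 epithelial and 6 endothelial markers, and those not counted above had no row in the table. None of the markers with a row was at 0 in all 6 libraries, and their part in the results below was not tested. In such bulk RNA, fewer cells of a type and less RNA per cell cannot be told apart.

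As background, hepatocyte growth factor is made mainly by mesenchymal cells as an inactive precursor, and serine proteases such as the HGF activator (Hgfac) and matriptase (St14) cut it into the active ligand. Ligand-bound Met phosphorylates a docking site in its tail, which recruits the adaptor Grb2 and the scaffold Gab1. Gab1 then brings in the phosphatase Shp2 (Ptpn11), which sustains signalling through RAS and ERK. The ubiquitin ligase Cbl marks the active receptor for uptake and degradation, and plexin B1 (Plxnb1), a semaphorin receptor, can associate with Met at the membrane. In melanocytes the lineage factor MITF has been described as an activator of Met transcription.

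The promoter windows of Met and Plxnb1 are shown because, of the 8 members with a row, these were the ones whose groups lay apart, in opposite directions. Both are RefSeq windows on GRCm38.p6, from 250 bases before the annotated start to 50 after it, and both genes are on the plus strand. That of Met is chr6:17463707-17464006 and that of Plxnb1 is chr9:109095186-109095485. The deposited values were made on mm9, so these coordinates do not apply to them. Capitals mark 3 motifs searched on both strands: CACGTG, the E-box that MITF and its relatives bind, TGAGTCA, the site of AP-1 factors such as Fos and Jun, and GGGCGG, the GC box of Sp1.
Met promoter: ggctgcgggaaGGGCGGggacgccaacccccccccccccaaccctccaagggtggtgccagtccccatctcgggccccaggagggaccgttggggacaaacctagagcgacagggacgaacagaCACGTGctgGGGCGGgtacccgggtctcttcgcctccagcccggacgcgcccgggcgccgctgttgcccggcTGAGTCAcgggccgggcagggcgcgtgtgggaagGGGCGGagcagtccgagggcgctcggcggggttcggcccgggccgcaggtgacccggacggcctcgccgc
Plxnb1 promoter: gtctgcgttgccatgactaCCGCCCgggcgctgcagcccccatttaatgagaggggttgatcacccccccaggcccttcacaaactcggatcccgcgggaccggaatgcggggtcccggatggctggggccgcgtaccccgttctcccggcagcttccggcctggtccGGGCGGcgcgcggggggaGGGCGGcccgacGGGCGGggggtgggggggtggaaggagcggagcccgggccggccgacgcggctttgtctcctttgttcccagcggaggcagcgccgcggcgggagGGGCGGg

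The Met window held 1 CACGTG, which begins at position -126 from the start, and 1 TGAGTCA, at -54, beside 3 GC boxes. None of these motifs overlaps another there. The Plxnb1 window held 5 GC boxes and neither of the other motifs. Among the 9 members with a RefSeq window, Met was the 1 with CACGTG or TGAGTCA. Of all 32851 windows of this length in the mouse table, 7.15% hold CACGTG, 5.20% hold TGAGTCA or its complement, and 35.7% hold a GC box. CATGTG, the other E-box form searched, was in 1 of the windows of Hgf and in 14.2% of all windows. The full cyclic AMP response element TGACGTCA was in the window of Ptpn11 and in 1.79% of all. These letters are a description of the windows, not of binding.

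Met was close to 2 times as high in treated cells. Its level was 18.8, 18.2 and 19.6 FPKM in the rPPAA18C6@Dox libraries and 9.23, 9.63 and 9.79 FPKM in the PBS libraries, from 4650 to 5011 and 2383 to 2481 recovered reads. The lowest treated library was well above the highest PBS library. On the log2(FPKM + 1) scale the fold change fitted by limma was 0.91 (SE 0.0384, n = 3 and 3), and the ratio of mean FPKM was 1.97. By this fold change Met ranked 5 among the 10680 tested genes. Because Met was chosen for this rise, these values describe the choice and carry no test. The spread between libraries was 3.92% of the mean with treatment and 3.02% with PBS, against 1.44% and 2.02% expected from counting reads alone.

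Hgfac and Mst1r had very few reads. Hgfac, the circulating protease that activates the ligand, had 4, 3 and 1 reads in the treated libraries and 2, 1 and 3 in the PBS libraries, at most 0.0487 FPKM. Mst1r, which encodes RON, the relative of Met that binds macrophage-stimulating protein, had 7, 4 and 6 reads with treatment and 8, 3 and 2 with PBS, at most 0.0439 FPKM. Groups overlapped for both genes. At 1 to 8 reads per library, a difference in either gene was not detectable at this depth, and neither passed the limit for testing.

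Plxnb1, the co-receptor, was the member that lay lower. Its level was 9.97, 9.91 and 9.10 FPKM with treatment and 11.8, 12.1 and 12.1 FPKM with PBS. Every treated library was below every PBS library, and the third treated library was the lowest. The log2 fold change was -0.29 (SE 0.0405) and the ratio of mean FPKM 0.806. Without rPPAA18C6@Dox replicate 3 the log2 fold change was -0.25. Exons of Plxnb1 overlap those of Gm7628 on the other strand in GENCODE vM21, and that gene was at a mean of 0.0559 FPKM here.

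The adaptors and effectors that dock on Met differed little. Grb2, the adaptor that links the receptor to RAS, was at 33.6, 32.2 and 32.7 FPKM with treatment and 32.1, 33.7 and 33.4 FPKM with PBS. Its groups overlapped (log2 fold change -0.01, SE 0.0300), and the sign turned positive without rPPAA18C6@Dox replicate 2 or PBS replicate 2. Gab1, the large scaffold, was at 1.997, 2.08 and 1.89 FPKM with treatment and 2.07, 2.27 and 2.31 FPKM with PBS. It was the lowest of the 6 tested members, and the second treated library lay just above the first PBS library, so the groups overlapped narrowly (-0.10, SE 0.0560). Ptpn11, the phosphatase Shp2, was at 44.4, 43.4 and 44.4 FPKM with treatment and 42.3, 42.4 and 44.5 FPKM with PBS. The third PBS library was its highest (0.03, SE 0.0285). Exons of Gab1 overlap those of Gm31105 on the other strand.

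Cbl, the brake of the receptor, was the member with the smallest difference. It was at 9.61, 9.57 and 9.01 FPKM with treatment and 9.12, 9.66 and 9.43 FPKM with PBS, and each group spanned most of the range of the other. The log2 fold change was -0.0011 (SE 0.0392), and its sign turned with quantile normalization and without rPPAA18C6@Dox replicate 3, PBS replicate 2 or PBS replicate 3.

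Of the 6 tested members, 1 passed limma's threshold as higher (Met), 1 as lower (Plxnb1) and 4 did not, where 9.93% of all tested genes passed in either direction, 4.66% higher and 5.26% lower. The same 2 genes were those whose groups did not overlap, as in 31.3% of all tested genes (12.6% higher and 18.7% lower). The members were picked from this contrast, so nothing is read from these shares.

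**Figure D1:**
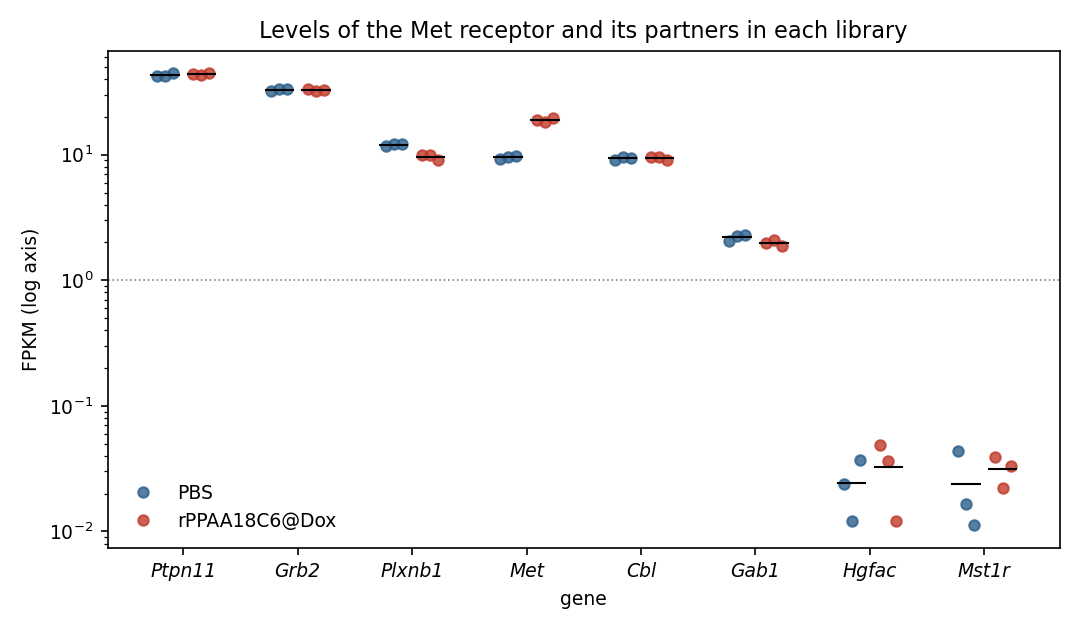
FPKM (log axis) of the 8 members with a row in the table, in each of the 3 PBS (blue) and 3 rPPAA18C6@Dox (red) libraries, ordered by their PBS level; black bars are group means and the dotted line is the 1 FPKM limit for testing. Met lies at 9.23 to 9.79 FPKM with PBS and 18.2 to 19.6 FPKM with treatment, while Mst1r and Hgfac lie far below the limit.

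The order of levels per length changed around Met. In PBS cells Ptpn11 (43.1 ± 1.24 FPKM, SD, n = 3) was the highest, followed by Grb2 (33.1 ± 0.834), Plxnb1 (11.98 ± 0.183), Met (9.55 ± 0.288), Cbl (9.40 ± 0.272) and Gab1 (2.21 ± 0.129). Met and Cbl overlapped there, and all other neighbours were apart. In treated cells Met (18.9 ± 0.740) came after Ptpn11 (44.1 ± 0.551) and Grb2 (32.8 ± 0.715). Plxnb1 (9.66 ± 0.485) and Cbl (9.40 ± 0.331) then overlapped, with Gab1 (1.99 ± 0.0941) last. Among all tested genes Met moved from percentile 46.0 with PBS to percentile 66.8 with treatment.

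Ratios within a library, which do not depend on depth, show the same in each library. The level of Met over that of Cbl was 1.01, 0.997 and 1.04 with PBS and 1.95, 1.90 and 2.18 with treatment. Over Grb2 it was 0.289 ± 0.00364 with PBS and 0.574 ± 0.0230 with treatment (SD, n = 3), over Ptpn11 0.222 ± 0.00469 and 0.428 ± 0.0126, and over Gab1 4.32 ± 0.128 and 9.50 ± 0.828. Over Plxnb1 the ratio was below 1 in each PBS library (0.784, 0.796 and 0.810) and above 1 in each treated library (1.88, 1.83 and 2.16). These ratios carry the difference in Met that the choice of genes used, and are given without a test. Which side of 1 a ratio lies on also rests on the gene lengths used.

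**Figure D2:**
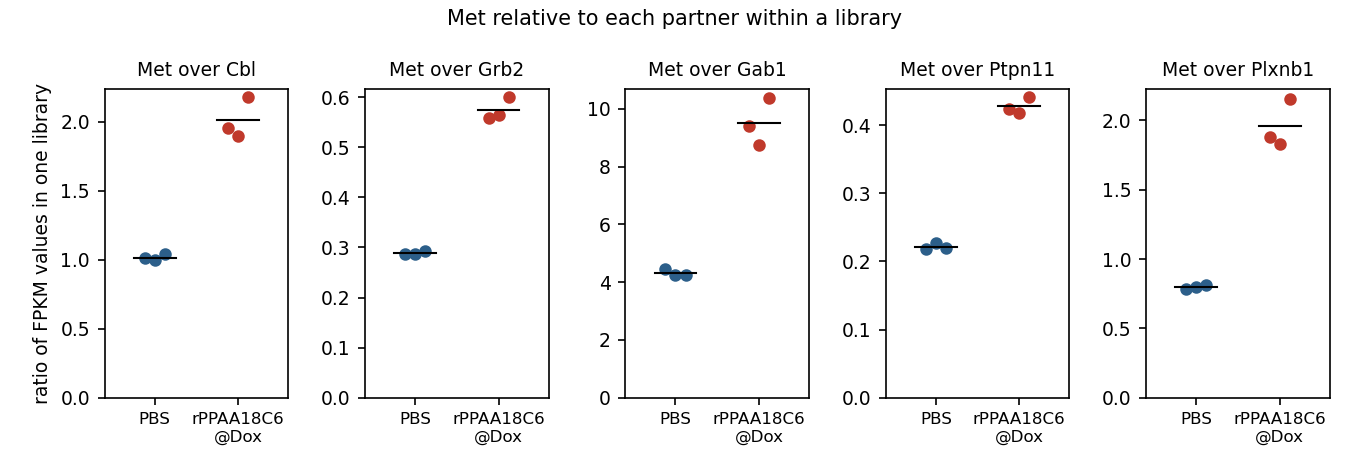
Ratio of the FPKM of Met to that of Cbl, Grb2, Gab1, Ptpn11 and Plxnb1 within each library (points, 3 per group; black bars are means), with each vertical axis starting at 0. In every panel all treated libraries lie above all PBS libraries, and for Plxnb1 the ratio goes from 0.797 to 1.96 on average.

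The rest of the pathway was described through 8 lists, from ligand activation to response genes. Without the members they hold 164 genes, of which 142 had a row and 122 were tested. Of these, 12 rose and 15 fell (limma on log2(FPKM + 1), Benjamini-Hochberg adjusted p under 0.05 over all tested genes), which is 22.1% against 9.93% of all tested genes and 13.2% of those with a mean of at least 5 FPKM. The median log2 fold change was -0.02 over the lists and -0.01 over all tested genes. By direction, 4.66% of all tested genes passed as higher and 5.26% as lower, the shares to set beside the counts of each list. The lists were written with earlier results of these data known, so the share called is no test of the pathway. Of the 27 calls, 17 held when any 1 library was left out and 10 did not.

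Among ligand proteases and inhibitors, 7 of 15 genes had a row and only Plat was tested. Plat, the tissue plasminogen activator, was at 3.05, 2.65 and 2.90 FPKM with treatment and 1.84, 1.96 and 1.51 FPKM with PBS, and every treated library was above every PBS library. It rose by 0.48 on the log2 scale (SE 0.0718, adjusted p = 0.00306, limma). The inhibitor Spint1, which blocks matriptase and the HGF activator, was below the limit at 0.879 and 0.844 FPKM on average. Mst1, the ligand of Mst1r, was at 0.0958 and 0.143 FPKM.

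Receptors and co-receptors went both ways: 3 of 16 tested genes rose, 4 fell and 9 did not pass. Nrp1, a neuropilin that binds semaphorins and growth factors, was at 7.84, 7.64 and 7.31 FPKM with treatment and 5.64, 6.24 and 5.91 FPKM with PBS (log2 fold change 0.31, SE 0.0455, adjusted p = 0.00281). Cd44, the hyaluronan receptor whose variant forms can present ligand to Met, was at 106, 105 and 104 FPKM against 90.7, 94.5 and 92.5 FPKM (0.18, SE 0.0243, adjusted p = 0.00209). For both genes the groups lay apart. Exons of Nrp1 overlap those of Mir1903 on the same strand. Plxnb2, another plexin of the B class, was at 84.7, 85.1 and 79.3 FPKM with treatment and 90.7, 95.8 and 94.2 FPKM with PBS and fell (-0.17, SE 0.0331, adjusted p = 0.0114).

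Plxnb1 and Plxnb2 were thus both lower, and the level of Plxnb1 over that of Plxnb2 within a library was 0.118, 0.116 and 0.115 with treatment and 0.130, 0.126 and 0.128 with PBS. The integrin Itga6 fell by 0.14 on the log2 scale (SE 0.0270, adjusted p = 0.0112), a call lost without PBS replicate 3 (adjusted p = 0.0511). The other calls were Gpc1 (0.09, adjusted p = 0.0459), Sdc2 (-0.13, adjusted p = 0.0305) and Erbb3 (-0.12, adjusted p = 0.0305). The calls of Gpc1 and Erbb3 were lost whichever library was left out (adjusted p up to 0.113 and 0.0855), and that of Sdc2 without any library but rPPAA18C6@Dox replicate 3 (up to 0.0868).

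Of the 38 tested adaptors and effectors other than the members, 1 rose, 4 fell and 33 did not pass, with a median log2 fold change of -0.01. Shc1, an adaptor that couples receptors to Grb2, was at 29.1, 28.2 and 27.9 FPKM with treatment and 33.8, 32.5 and 32.2 FPKM with PBS. The groups lay apart, and Shc1 fell by 0.20 on the log2 scale (SE 0.0305, adjusted p = 0.00338). Its call was the only one of the 5 that held without any 1 library. Arf6 (-0.12, SE 0.0259), a GTPase of membrane traffic, lost its call when rPPAA18C6@Dox replicate 3, PBS replicate 2 or PBS replicate 3 was left out (highest adjusted p 0.0765).

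The ERK kinase Map2k2 (-0.11, SE 0.0236) lost its call without any library but PBS replicate 2 (adjusted p up to 0.0705). The phosphoinositide kinase subunit Pik3r2 (-0.15, SE 0.0351) lost it without either of the first 2 libraries of each group (up to 0.0743), and the transcription factor Stat3 (0.11, SE 0.0290) without any library but rPPAA18C6@Dox replicate 2 (up to 0.123). Gab2, the relative of Gab1, was at 6.75 and 6.79 FPKM on average (-0.01, adjusted p = 0.951). Exons of Stat3 overlap those of Stat5a, at 8.03 FPKM, on the other strand.

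Among 24 tested brakes, ubiquitin ligases and trafficking genes besides Cbl, 22 did not pass, and the calls were those of the phosphatases that inactivate MAP kinases. Dusp6, which acts on ERK, was at 44.3, 41.6 and 45.0 FPKM with treatment and 57.3, 57.2 and 59.1 FPKM with PBS (log2 fold change -0.40, SE 0.0326, adjusted p = 6.71e-05). Dusp1, of wider specificity, was at 2.90, 3.31 and 3.12 FPKM against 2.20, 2.15 and 2.44 FPKM (0.33, SE 0.0585, adjusted p = 0.00711). Dusp6 was lower and Dusp1 higher in each treated library than in any PBS library. Exons of Dusp1 overlap those of Ergic1, at 15.6 FPKM, on the other strand. Cblb, the relative of Cbl, was at 1.49 and 1.47 FPKM (0.01, adjusted p = 0.941), and the phosphatase Ptpn1, which acts on Met, at 14.2 and 13.5 FPKM (0.06, adjusted p = 0.251). The next 2 by p were the endophilin Sh3gl1 (-0.09, adjusted p = 0.135) and the sorting adaptor Gga3 (-0.13, adjusted p = 0.0931), which passed with voom on recovered reads (0.0388). Exons of Sh3gl1 overlap those of Mpnd, at 29.3 FPKM, and exons of Gga3 those of Mrps7, at 42.5 FPKM, both on the other strand.

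Of the 12 genes of receptor shedding, 1 rose and 2 fell. Adam10, a membrane protease that releases ectodomains, was at 62.0, 60.6 and 62.9 FPKM with treatment and 46.6, 47.4 and 47.4 FPKM with PBS. The groups lay far apart against their spread, and Adam10 rose by 0.38 on the log2 scale (SE 0.0253, adjusted p = 1.70e-05). Its relative Adam17 was at 20.9 and 21.6 FPKM (-0.05, adjusted p = 0.340). Timp2, a metalloprotease inhibitor, fell by 0.14 (SE 0.0261, adjusted p = 0.00937). Psen2, a gamma-secretase subunit, fell by 0.11 (SE 0.0257), a call lost without any library but rPPAA18C6@Dox replicate 3 (adjusted p up to 0.0926). Ncstn, another subunit, did not pass (-0.09, adjusted p = 0.107), and its exons overlap those of Copa, at 74.3 FPKM, on the other strand.

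Among 14 factors described at the Met promoter, 4 rose, 1 fell and 9 did not pass. Of all tested genes 4.66% passed as higher and 5.26% as lower. Mitf, the E-box factor of the melanocyte lineage, was at 56.9, 56.7 and 55.7 FPKM with treatment and 44.9, 46.7 and 45.0 FPKM with PBS (log2 fold change 0.30, SE 0.0261, adjusted p = 8.86e-05). Fos, an AP-1 subunit, was at 3.38, 3.39 and 3.67 FPKM against 2.03, 1.69 and 1.67 FPKM (0.68, SE 0.0631, adjusted p = 0.000133). Jun, its partner, was at 18.1, 18.3 and 20.1 FPKM against 14.9, 15.6 and 14.4 FPKM (0.31, SE 0.0446, adjusted p = 0.00261). In all 3 genes every treated library was above every PBS library. The hypoxia factor Hif1a rose by 0.16 (SE 0.0234, adjusted p = 0.00243), and Ets1, a factor of growth factor responses, fell by 0.18 (SE 0.0257, adjusted p = 0.00278). Exons of Hif1a overlap those of Gm49321 on the same strand and those of Gm15283 on the other strand. Sp1 (-0.05, adjusted p = 0.497) and the MITF relatives Tfe3 (-0.10, adjusted p = 0.0939) and Tfeb (0.19, adjusted p = 0.0844) did not pass in limma. With voom on recovered reads Tfeb passed as higher. What the factors of this list had to do with the level of Met was not tested.

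Of the 12 tested genes described as responding to hepatocyte growth factor, 0 passed as higher in limma and 3 fell, where 4.66% of all tested genes passed as higher and 5.26% as lower. At an unadjusted p under 0.05, 2 were higher, Mmp2 and Egr1, and voom on recovered reads called 1, Mmp2. The metalloprotease Mmp2 (log2 fold change 0.23, adjusted p = 0.0622) passed with voom (0.0430), with quantile normalization (0.0459) and without the trend (0.0286). The early response factor Egr1 was at 2.02, 1.38 and 1.63 FPKM with treatment and 1.16 to 1.36 FPKM with PBS (0.24, adjusted p = 0.111). Groups lay apart for both genes, narrowly for Egr1. Mmp14, a membrane metalloprotease, was at 81.0, 80.6 and 81.4 FPKM with treatment and 94.8, 92.7 and 91.7 FPKM with PBS (log2 fold change -0.20, SE 0.0234, adjusted p = 0.000843). Myc fell by 0.30 (SE 0.0387, adjusted p = 0.00152), and Ets1, which the previous list also holds, was the third. These responses were described mostly in epithelial cells, and the medium's ligand content is not given in the sources used here.

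**Figure D3:**
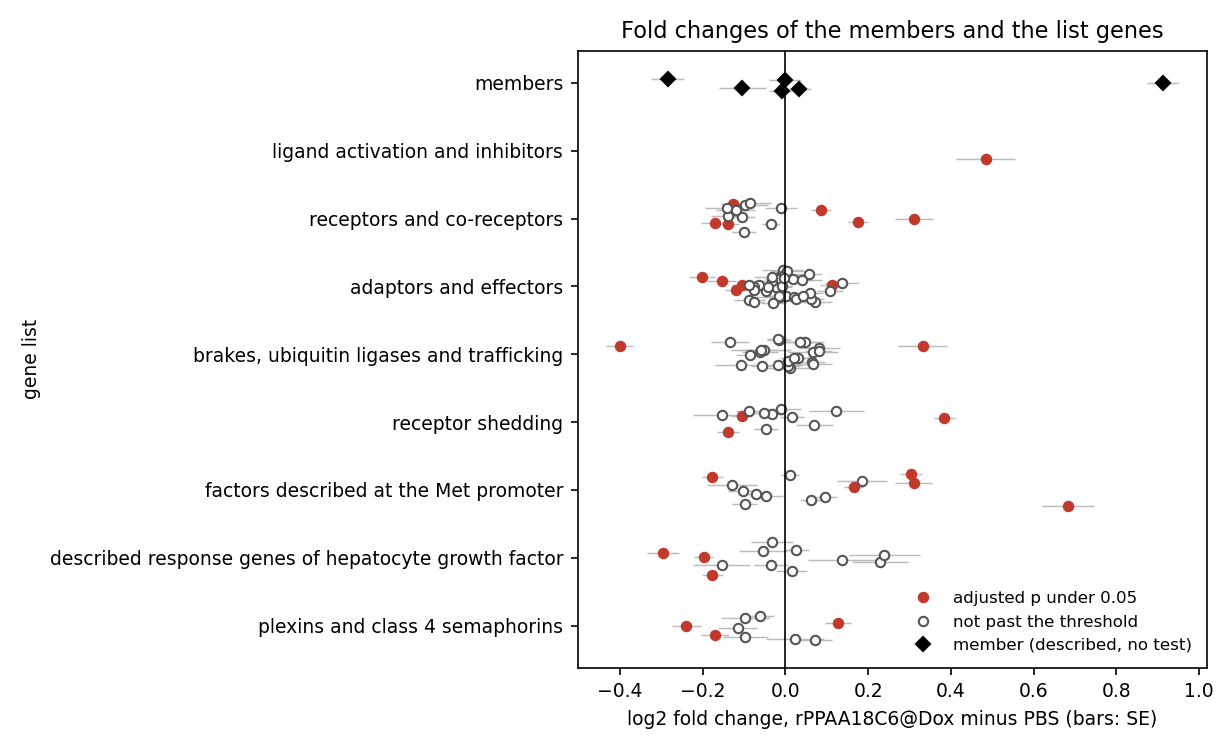
Log2 fold changes with treatment (horizontal axis, on log2(FPKM + 1), bars are SE) of the 6 tested members (black diamonds) and of the tested genes of 8 lists (circles, filled red where the adjusted p was under 0.05). Met, which was chosen for its rise, lies at 0.91, farther to the right than any gene of the lists. Of the list genes Fos (0.68) comes next, and all other circles lie within the range of -0.40 to 0.48.

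The genes whose profile over the 6 libraries was most like that of Met were found by the root mean square difference between log2(FPKM + 1) values, each centred on the mean of its gene, over 7787 genes with a mean of at least 5 FPKM. Eps8, an actin regulator, was the nearest at a distance of 0.0341, followed by the coactivator Ppargc1a (0.0481), the anoctamin Ano3 (0.0908), the mTOR inhibitor Deptor (0.0993) and the glutathione transferase Gsta2 (0.122). The median distance over the 7636 genes with a regular symbol was 0.465. A gene without change lies as far from Met as Met lies from its own mean (-0.50 to 0.51). The median therefore mostly reflects the size of the rise of Met. As Met was chosen for its rise, the list of nearest genes mainly gathers genes with a rise of like size. Exons of Ano3 overlap those of Muc15, and exons of Deptor those of Gm9920, both on the other strand.

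Eps8 matched Met in size, with log2 fold changes of 0.91 for both. Its FPKM was far higher, at 121 ± 2.45 and 63.9 ± 0.315 FPKM (SD, n = 3). Ppargc1a was at 9.98 ± 0.280 and 4.56 ± 0.188 FPKM, and Gsta2 at 15.0 ± 0.818 and 9.03 ± 0.436 FPKM. Gsta2 belongs to a family of near-identical copies, so its level is uncertain.

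**Figure D4:**
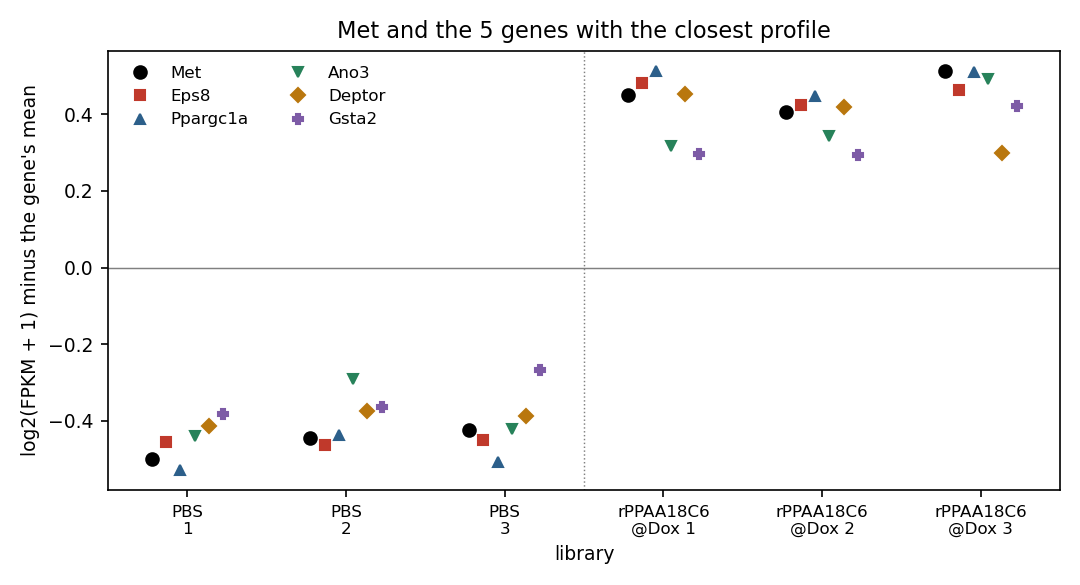
Log2(FPKM + 1) minus the mean of each gene (vertical axis) in the 6 libraries (horizontal axis) for Met and the 5 genes nearest to it. All 6 genes lie below 0 in each PBS library and above 0 in each treated library, with Met between -0.50 and 0.51.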

How the data were processed

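RNA of 6 libraries was sequenced after preparation with a stranded poly(A) kit, per the labels' protocols. The deposited values were read as FPKM made by the authors. The header names no unit, but for each of the 15726 genes 1 factor turned the 6 values into whole reads (tolerance 0.01), which gave the depths. The submitters' processing notes name mm9, and the aligner, counter, use of strand and filters are not stated there. The deposited p-value column, with no test named, was not used.

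Genes with a mean of at least 1 FPKM in either group were tested by limma 3.58.1 (R 4.3.3) on log2(FPKM + 1) without pairing, two-sided, with the trend option and p-values adjusted by Benjamini-Hochberg (threshold 0.05). This scale understates changes of low genes. The fit was checked on simulated data. Members and lists were chosen with earlier results of these data known. Named were the members, the 4 other genes of each list with the smallest p, further called genes where few were called, and the 5 genes nearest to Met that carry no predicted or clone name. Spint1, Mst1, Gab2, Cblb, Ptpn1, Adam17, Egr1, Sp1, Tfe3 and Tfeb were added after their values were seen. Promoter windows are from RefSeq (GRCm38.p6). Exon overlaps are from GENCODE vM21, used for names only, and reads of overlapping genes may be mixed. Not given above are overlaps on the other strand of Jun with Junos (0.0825 FPKM), Gpc1 with Ankmy1 (0.0254 FPKM) and Pik3r2 with 6330537M06Rik (0.0472 FPKM). On the other strand Arf6 also overlaps Gm9887 and Sema4c overlaps D430040D24Rik, partners without a row in the table. Alternatives were a pseudocount of 0.1, no filter, a filter at 5 FPKM, quantile normalization, no trend, voom on recovered reads, a replicate block and leaving out each library.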

Additional observations from a re-analysis of the deposited data

How the results depend on the processing

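The log2 fold change of Met was 0.91. It moved beyond the spread between libraries when the pseudocount was 0.1 (0.97) and under voom on recovered reads (0.98), both of which shrink low values less. With 1 library left out it was 0.88 to 0.94. Plxnb1 was lower in each of these alternatives, at -0.25 to -0.31. Over all tested genes 1060 passed, with no filter 681, with voom 1636, and with 1 library left out 600 to 749. Of the pathway genes 27 passed, 43 with voom and 18 to 23 with 1 library left out. Quantile normalization gave 551 higher and 499 lower calls, against 498 and 562. Same-numbered libraries did not deviate together (correlations -0.00, 0.05 and -0.02 across genes). Whether they were handled together is not in the labels. With the replicate block 825 genes and 20 pathway genes passed. The block ended the calls of Cd68, Erbb3, Gpc1, Pik3r2, Plxnd1, Psen2, Sdc2 and Stat3. Leaving out the trend ended those of Gpc1, Map2k2, Pik3r2, Plxnd1, Psen2, Sdc2 and Stat3, no filter those of Pik3r2, Plxnd1 and Stat3, and quantile normalization those of Gpc1 and Plxnd1. Among the list genes named for their smallest p, voom added calls of Gga3 and Mmp2, and quantile normalization and no trend that of Mmp2. Of the genes added after their values were seen, voom called Tfeb as higher. Mst1r and Hgfac are limited by depth.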

Other observations

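Met shares its extracellular Sema domain with plexins and semaphorins, and this family was also measured. Of the 9 tested plexins and class 4 semaphorins besides Plxnb1, 1 rose, 2 fell and 6 did not pass (limma, adjusted p under 0.05 over all tested genes), with a median log2 fold change of -0.10. Sema4c, a ligand of plexin B2, was at 9.98, 10.3 and 9.80 FPKM with treatment and 11.7, 12.2 and 12.2 FPKM with PBS, and the groups lay apart. It fell by 0.24 on the log2 scale (SE 0.0354, adjusted p = 0.00298), as Plxnb2 did (-0.17). Plxnd1 had the highest FPKM of the listed plexins in treated libraries, at 139, 137 and 130.0 FPKM against 120.0, 127 and 125 FPKM. It rose by 0.13 (SE 0.0318, adjusted p = 0.0343), a call lost without any library but rPPAA18C6@Dox replicate 3 (adjusted p up to 0.0993). Sema4b did not pass (-0.12, adjusted p = 0.151).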
